A study of Mus musculus with 10 samples.

Results

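Nucleolar and ribosome biogenesis genes, 46 in number, were followed in RAW264.7 cells, a macrophage-like mouse tumour line, cultured with doxorubicin for 24 h. They encode subunits and initiation factors of RNA polymerase I and factors that modify, cut and assemble ribosomal RNA, and they were chosen by symbol from 22186 genes in the deposited table. Ribosomal protein genes were left out by this choice. All 46 were found in the table, and 45 of them, averaging 1 FPKM or more across all 10 libraries, were among the 9869 genes tested. FPKM are fragment counts divided by transcript length and by the size of the library. The remaining gene, Rrp12, averaged 0.453 FPKM and is described by its values only.

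The groups were 5 libraries of cells in medium with doxorubicin and 5 libraries of cells in medium, all wild type by the labels. Doxorubicin is an anthracycline that intercalates into DNA and traps topoisomerase II. Its dose is not certain, since the titles name 10 nM, the design text names 100 nM and the stated dilution comes to 1000 nM. Both groups carry replicate numbers 1 to 5, and the labels name dimethyl sulfoxide, the solvent, for the doxorubicin cultures alone. Whether the 5 libraries per group are separate cultures is not stated, so p-values describe the spread between these samples, which may be technical.

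Ribosomes begin in the nucleolus, where RNA polymerase I copies the ribosomal RNA genes. Small nucleolar ribonucleoproteins guide methylation (box C/D) and pseudouridylation (H/ACA) of the transcript, a large particle called the small subunit processome folds and cuts it, and separate sets of factors mature the small and large subunits. The transcription factor MYC is known to raise many of these genes, often through the E-box CACGTG, and anthracyclines are known to disturb RNA polymerase I. The libraries were made from RNA enriched on oligo(dT), so these values are messenger RNA levels, and ribosomal RNA synthesis was not measured. In bulk RNA, fewer cells that express a gene and less of its RNA per cell cannot be told apart.

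The labels were checked on 4 p53 targets (Cdkn1a, Ccng1, Mdm2 and Trp53inp1), and all 4 were higher with doxorubicin (limma on log2(FPKM + 1), Benjamini-Hochberg adjusted p 0.00466 to 0.0354, median difference 1.52). These 4 were chosen with earlier results of these data known, so they are not an independent check. All 10 macrophage markers were above the filter, with means of 23.1 to 522 FPKM. Their sum was 1749 to 2048 FPKM with doxorubicin and 1642 to 1840.2 FPKM in medium. With group as the only term none of the 10 was called, against 0.912% of all genes tested. With the replicate number as a block in the fit, 3 (Lyz2, Itgam and Laptm5) were called higher, against 7.81% of all genes tested. Of 7 lymphocyte markers only Cd79b passed the filter, and Cd3e, Cd3g and Cd8a were listed at 0. Cd79b had 11.9 FPKM in doxorubicin 1 and 8.98 in medium 1, against 3.62 to 4.69 FPKM in the other 8 libraries. The 7 lymphocyte markers summed to 4.62 to 12.3 FPKM with doxorubicin and 3.72 to 9.16 FPKM in medium. None of 9 markers of fibroblasts, epithelium and endothelium passed the filter. They summed to 0.396 to 0.597 FPKM with doxorubicin and 0.251 to 0.556 FPKM in medium, with Col1a2, Krt8 and Krt18 listed at 0 in all 10 libraries. FPKM values summed to 338293 to 356111 per library.

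Of the 46 genes, 42 averaged between 5.28 FPKM for Taf1a and 1538 FPKM for Npm1, a histone and ribosome chaperone, with a median of 53.6 FPKM. By role the median level was highest for the abundant nucleolar proteins, at 163 FPKM. It was 120.1 FPKM for the box C/D and H/ACA proteins with their chaperones and 44.9 FPKM for large subunit factors. The small subunit processome had a median of 41.7 FPKM, late small subunit factors 38.4 FPKM over the 4 tested, and RNA polymerase I with its factors 37.4 FPKM. Levels differed within complexes too. The 3 H/ACA proteins Nhp2, Nop10 and Gar1, partners of the pseudouridine synthase Dkc1 at 60.3 FPKM, averaged 309, 135 and 69.8 FPKM. The largest subunit of RNA polymerase I, Polr1a, averaged 34.2 FPKM and Polr1e 8.51 FPKM. Polr1d, a subunit shared with RNA polymerase III, averaged 134 FPKM.

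**Figure D1:**
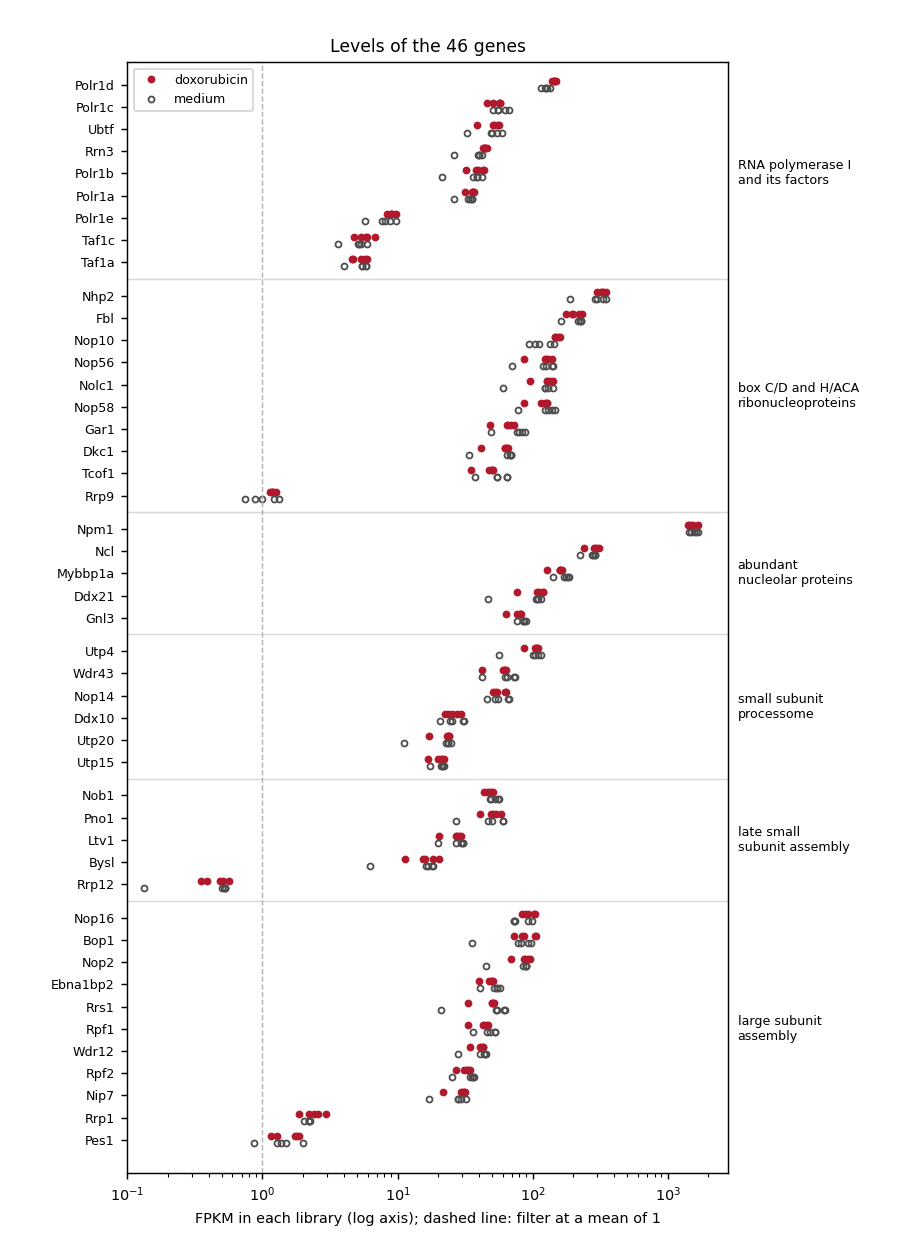
FPKM of each of the 46 genes in each library (log axis), with doxorubicin libraries as filled points above medium libraries as open points, ordered by level within 6 roles. Rrp1, Rrp9, Rrp12 and Pes1 lie near or under 3 FPKM, and the other 42 genes average at least 5.28 FPKM.

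The other 4 genes were far lower, and their values are not read as expression levels. Rrp1 averaged 2.30 FPKM, Pes1 1.49, Rrp9 1.11 and Rrp12 0.453. Rrp1 had 1.86 to 2.97 FPKM with doxorubicin and 2.03 to 2.25 FPKM in medium. Pes1 forms a complex with Bop1 and Wdr12, which averaged 83.9 and 40.5 FPKM in the same libraries. The table held 8 genes whose symbols begin with Rrp, and all of them averaged between 0.318 and 2.30 FPKM. Genes named Rpl or Rps had a median of 5.49 FPKM over 82 symbols, and those named Mrpl and Mrps had medians of 0.727 over 49 and 0.710 over 29. The part of the table's own processing in these values was not tested. Differences between groups for the 3 of these genes that were tested are given with the rest.

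The doxorubicin and medium libraries numbered 1 were unlike the other 8 in these genes, and not in these genes alone. Libraries of number 1 correlated with those of numbers 2 to 5 at 0.937 to 0.982, against 0.976 to 0.998 among numbers 2 to 5. The p53 target Cdkn1a had 212 FPKM in doxorubicin 1, against 120 to 143 FPKM in doxorubicin 2 to 5. Set against each gene's mean log2(FPKM + 1) in the 8 libraries of numbers 2 to 5, the 45 tested genes had a median of -0.32 in doxorubicin 1 and -0.54 in medium 1. In the other 8 libraries this median lay between -0.03 and 0.04. Below the mean were 40 of 45 genes in doxorubicin 1, against 59.8% of all genes tested. In medium 1 they were 44 of 45, with Npm1 the exception, against 58.0% of all genes tested. The median of all 9869 genes tested was -0.08 in both. Doxorubicin 1 had the lowest value of its group for 37 of the 45 genes, against 42.3% of all genes tested, and medium 1 for 41 of the 45, against 48.6%. The deepest values in medium 1 were those of Bysl (-1.35), Rrs1 (-1.33), Bop1 (-1.32), Ddx21 (-1.25) and Nolc1 (-1.11).

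**Figure D2:**
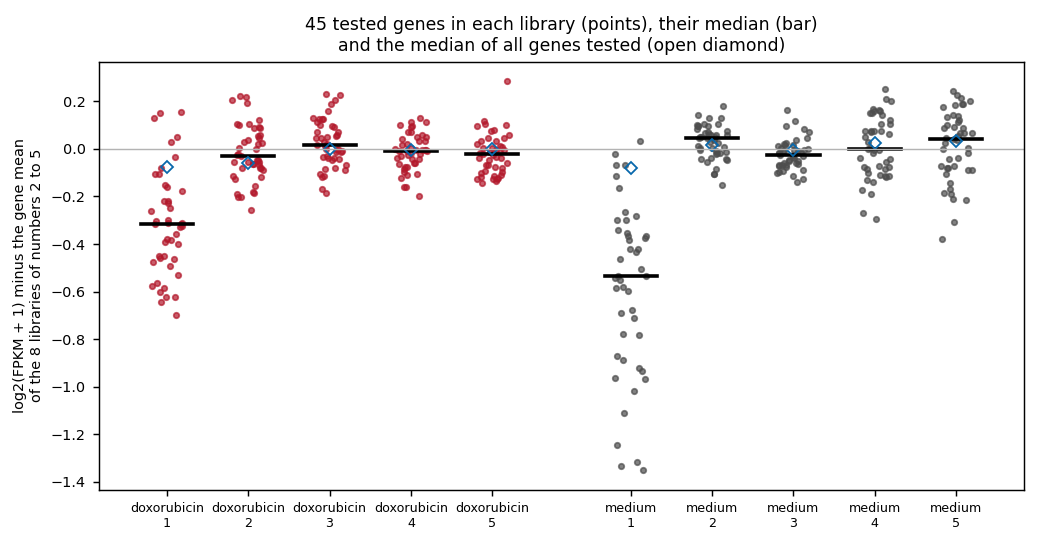
Log2(FPKM + 1) of the 45 tested genes in each library, minus the gene's mean over the 8 libraries of numbers 2 to 5, with the median of the genes as a bar and the median of all genes tested as an open diamond. The bars sit at -0.32 in doxorubicin 1 and -0.54 in medium 1 and between -0.03 and 0.04 elsewhere.

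Several genes show this in FPKM. Bop1, a large subunit assembly factor, had 73.4 FPKM in doxorubicin 1 and 84.2 to 106 in doxorubicin 2 to 5, against 35.8 FPKM in medium 1 and 78.2 to 97.0 in medium 2 to 5. The helicase Ddx21 had 77.4 FPKM in doxorubicin 1 and 108 to 120.1 in the other doxorubicin libraries, against 46.7 in medium 1 and 107 to 115 in the other medium libraries. In both genes the groups overlap and the lowest library of all is medium 1. Without number 1, Ddx21 averaged 115 ± 6.05 FPKM with doxorubicin and 109.7 ± 3.76 FPKM in medium (SD, n = 4 each). Over the 45 genes, the median SD of log2(FPKM + 1) was 0.157 in the doxorubicin group and 0.254 in the medium group. Without number 1 it was 0.0617 with doxorubicin and 0.0866 in medium. The part of RNA quality, culture or library preparation in this pattern was not tested.

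The promoters of these genes were read from RefSeq's table (build GRCm38.p6, from 250 bases before to 50 after each gene start), which matched 39 of the 46. CACGTG, which reads the same on both strands, was found in 10 of the 39 (25.6%), in 1024 of 8045 tested genes with a promoter (12.7%) and in 8.09% of all 27025 genes of the table. The 10 were Rrn3, Mybbp1a, Utp4, Utp20, Wdr43, Ltv1, Pno1, Nop2, Pes1 and Rpf2. The matches that lie wholly before the gene start with their flanks are shown, since they include Rrn3, whose groups did not overlap, and Nop2, among the genes lowest in medium 1. Capitals mark the motif, the strand is the gene's, and the motif starts at positions -215 and -48 (Rrn3), -60 (Nop2) and -26 (Rpf2) from the gene start. The Rrn3 windows are chr16:13780469-13780504 and chr16:13780636-13780671 (both plus strand), Nop2 is chr6:125131808-125131843 (plus) and Rpf2 is chr10:40246985-40247020 (minus).
Rrn3, distal: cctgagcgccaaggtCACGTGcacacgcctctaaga
Rrn3, proximal: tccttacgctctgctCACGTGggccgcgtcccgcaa
Nop2: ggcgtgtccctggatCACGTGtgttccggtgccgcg
Rpf2: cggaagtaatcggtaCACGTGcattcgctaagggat
A match describes the sequence and does not show that a factor binds there. The windows of Nop10, Nop16, Polr1d, Gar1 and Nob1 hold no CACGTG.

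The comparison of doxorubicin with medium asked whether this set of messenger RNAs differed after treatment. None of the 45 tested genes passed an adjusted p of 0.05 in the fit with group as the only term (limma, smallest adjusted p 0.123). An unadjusted p under 0.05 was found for 3 of the 45, against 1757 of all 9869 genes tested. This fit called 0.912% of all genes tested (90 of 9869). The median difference of the 45 genes was 0.061 (log2(FPKM + 1), doxorubicin minus medium), against -0.03 over all genes tested, with 25 genes above 0 and 20 below. Differences ran from -0.22 for Tcof1 to 0.38 for Nop10. The 95% interval of the difference lay within a 2-fold change of FPKM + 1 for 45 of 45 genes (97.3% of all genes tested). It lay within a 1.5-fold change of FPKM + 1 for 39 of 45 (85.1%). For low genes such a bound is wider in FPKM.

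The labels do not state that libraries with the same replicate number are paired. Deviations from the group means correlated at 0.52 to 0.79 within a number, and at 0.51 to 0.69 between numbers 2 and 3 or 4 and 5. The fit with the number as a block changed calls. It called 3 of the 45 genes higher, Nop10, Polr1d and Nop16, against 7.81% of all genes tested. It called 4 lower, Tcof1, Gar1, Mybbp1a and Nob1, against 13.7% of all genes tested. Both counts are no larger a share than the background. With the block, the 95% interval lay within a 1.5-fold change of FPKM + 1 for 44 of 45 genes (94.5% of all genes tested). Leaving out number 4 or number 5 in both groups left 0 of the 45 called, with 637 and 628 genes called over all tested.

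The within-number differences were not alike. Their median over the 45 genes was 0.24 for number 1, -0.06 for number 2, 0.03 for number 3, -0.02 for number 4 and -0.04 for number 5. Over all genes tested these medians were 0.02, -0.07, 0.00, -0.03 and -0.03. Without number 1 the median of the 45 genes was -0.02, against -0.04 over all genes tested. Without medium 1 alone it was -0.09, so the sign of the median rests on that library. Genes higher with doxorubicin in 5 of 5 numbers were 9 of the 45, against 13.2% of all genes tested, and genes lower in 5 of 5 were 7, against 23.1%.

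**Figure D3:**
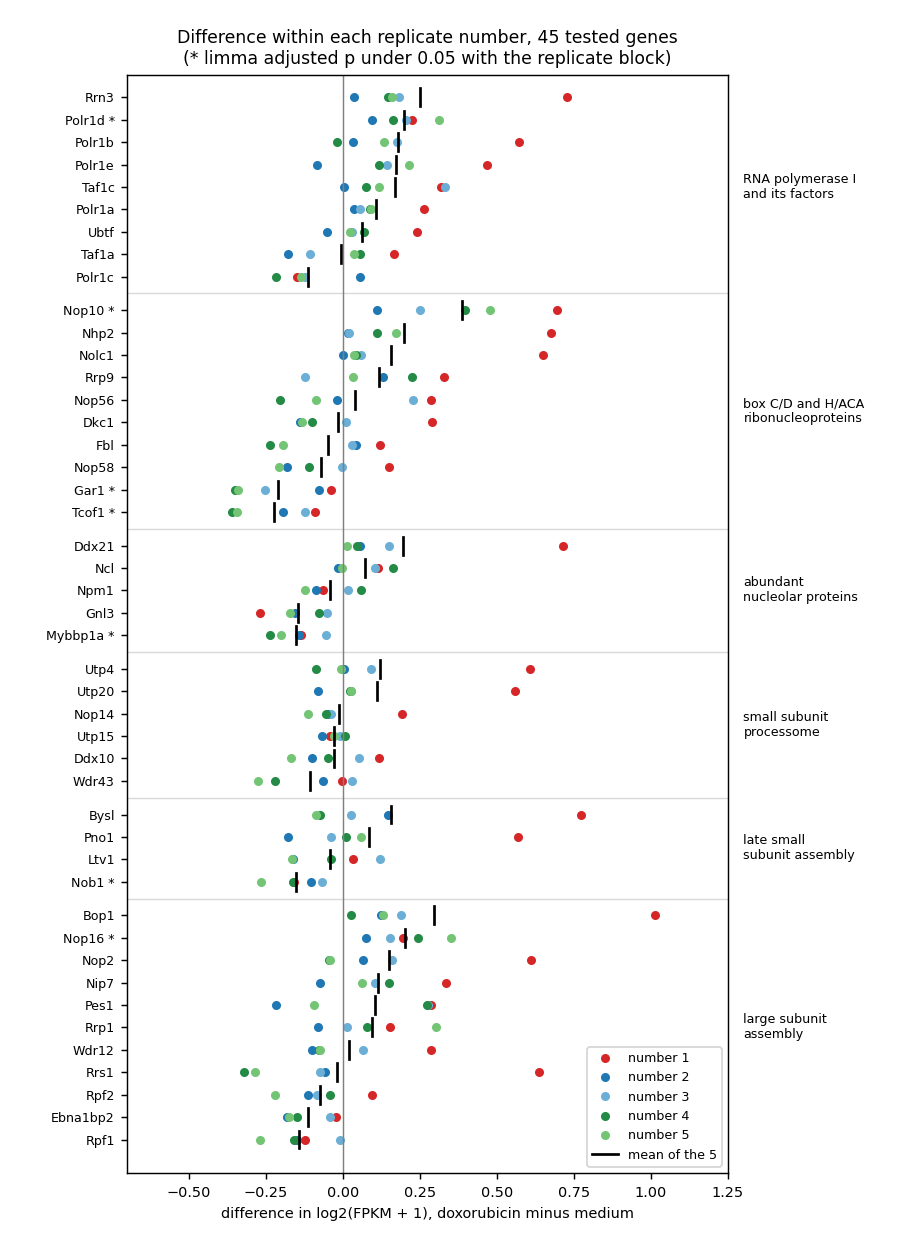
Difference in log2(FPKM + 1), doxorubicin minus medium, within each replicate number for the 45 tested genes, in 6 roles, with the mean of the 5 numbers as a bar and a star for genes with a limma adjusted p under 0.05 with the replicate block. Number 1 lies far to the right of the others for genes such as Bop1, Bysl, Rrn3 and Ddx21, and its median is 0.24, against -0.06 to 0.03 for numbers 2 to 5.

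Leaving out number 1 in both groups changed the calls as well. Without the block it left 1 of the 45 genes called, Gar1, at a difference of -0.25 (adjusted p 0.0317), against 5.63% of all genes tested. With the block it called 4 higher (Polr1d, Rrn3, Nop10 and Nop16), against 10.2% of all genes tested, and 7 lower (Gar1, Tcof1, Ebna1bp2, Rrs1, Rpf1, Nob1 and Mybbp1a), against 18.4%.

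RNA polymerase I and its factors held 9 of the genes, 7 with a difference above 0 and 2 below, and a median difference of 0.17. The median within-number difference of these 9 was 0.26 for number 1 and 0.03 to 0.14 for numbers 2 to 5. Without number 1 their median difference was 0.08. None of the 9 passed the fit without the block, and with the block Polr1d was called higher. Polymerase I subunits and factors in the wider list below mostly went the other way. Znrd1 (-0.26), Taf1b (-0.31), Twistnb (-0.12), Taf1d (-0.10) and Ttf1 (-0.06) were below 0, and Cd3eap (0.09) was above. Znrd1 and Taf1b were called lower with the block. Polr1d had 148, 143, 146, 138 and 143 FPKM in doxorubicin 1 to 5, against 127, 134, 127, 123 and 115 FPKM in medium 1 to 5. All doxorubicin libraries lie above all medium libraries. The difference was 0.20 ± 0.06 (SE; limma adjusted p 0.123, and 0.0186 with the block). The exact permutation test over the 10 libraries gave p = 0.00794, the smallest it can give, and 0.119 after adjustment over all genes tested.

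Rrn3, which brings RNA polymerase I to its promoter, had 43.9, 43.0, 45.99, 44.6 and 44.1 FPKM with doxorubicin, against 26.1, 42.0, 40.4, 40.2 and 39.4 FPKM in medium. Here too the groups do not overlap, although medium 2 lies close to doxorubicin 2. The difference was 0.25 ± 0.12 (SE; adjusted p 0.288, and 0.0839 with the block). Its within-number difference was 0.73 for number 1 and 0.04 to 0.18 for numbers 2 to 5. Groups without overlap were found for 3 of the 45 genes, Nop10, Polr1d and Rrn3, each higher with doxorubicin, against 6.70% of all genes tested in either direction.

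The other members of this role did not pass either fit. Taf1c, part of the promoter selectivity complex SL1, averaged 5.75 ± 0.770 FPKM with doxorubicin and 5.03 ± 0.856 FPKM in medium (SD, n = 5 each; adjusted p 0.483, and 0.0965 with the block). The second-largest subunit Polr1b averaged 39.4 ± 4.72 FPKM with doxorubicin and 35.4 ± 8.22 FPKM in medium. The subunits Polr1a and Polr1e differed by 0.11 and 0.17, the promoter-binding factor Ubtf by 0.06, and Taf1a by -0.01. Polr1c, which pairs with Polr1d in RNA polymerases I and III, was also below 0, at 53.8 ± 5.16 FPKM with doxorubicin and 58.4 ± 6.28 FPKM in medium, a difference of -0.11. The ratio of Polr1d to Polr1c was 2.40 to 3.21 with doxorubicin and 1.84 to 2.47 in medium, and the groups overlap.

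The box C/D and H/ACA proteins and their chaperones, 10 genes, split evenly in sign (5 above 0 and 5 below, median difference 0.01). Within the H/ACA core, 2 members were called with the block, in opposite directions. Nop10 had 152, 156, 159.9, 147 and 146 FPKM in doxorubicin 1 to 5, against 93.4, 145, 134, 111 and 105 FPKM in medium 1 to 5. All doxorubicin libraries lie above all medium libraries, and the doxorubicin libraries vary less (SD 5.94 FPKM, against 21.3 FPKM in medium). The difference of 0.38 ± 0.11 (SE) was the largest of the 45 genes (adjusted p 0.126, and 0.0135 with the block).

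Gar1, in the same particle, had 48.2, 73.1, 66.3, 64.9 and 68.8 FPKM with doxorubicin, against 49.5, 77.2, 79.2, 83.0 and 87.4 FPKM in medium. The groups overlap through medium 1, while doxorubicin was lower in 5 of 5 numbers. The difference was -0.21 ± 0.16 (SE; adjusted p 0.523, and 0.0375 with the block). The ratio of Nop10 to Gar1 was 2.13 to 3.15 in the doxorubicin libraries and 1.20 to 1.89 in the medium libraries, averaging 2.42 ± 0.426 with doxorubicin and 1.60 ± 0.314 in medium (SD, n = 5 each). This ratio was formed after the values were seen and is a description with no test. Nhp2 averaged 327 ± 18.5 FPKM with doxorubicin and 291 ± 61.9 FPKM in medium (block adjusted p 0.147), and Dkc1 differed by -0.01.

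Tcof1, the treacle protein, a scaffold for RNA polymerase I, had 35.0, 47.9, 50.1, 50.4 and 50.8 FPKM with doxorubicin, against 37.4, 54.9, 54.7, 65.0 and 64.8 FPKM in medium. It was lower in 5 of 5 numbers, and the groups overlap through medium 1. The difference was -0.22 ± 0.16 (SE; adjusted p 0.489, and 0.0250 with the block). The box C/D proteins Fbl (the methyltransferase fibrillarin), Nop56 and Nop58 differed by -0.05, 0.04 and -0.07, and the chaperone Nolc1 by 0.16 as the mean of 5 within-number differences, 0.65 for number 1 and 0.00 to 0.06 for the others. None of these 4 was called in either fit.

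Among 5 abundant nucleolar proteins the median difference was -0.04. Mybbp1a, a MYB-binding protein of the nucleolus, had 129, 161, 165, 159 and 159 FPKM in doxorubicin 1 to 5, against 141, 178, 172, 187 and 182 FPKM in medium 1 to 5. Medium 1 lies among the doxorubicin libraries and the other medium libraries lie above all of them. The difference was -0.15 ± 0.09 (SE; adjusted p 0.426, and 0.0378 with the block). Gnl3 (nucleostemin) averaged 76.9 ± 7.64 FPKM with doxorubicin and 84.8 ± 4.72 FPKM in medium, lower in 5 of 5 numbers, and missed the threshold (adjusted p 0.365, and 0.0563 with the block). Npm1 had 1407 to 1678 FPKM with doxorubicin and 1435 to 1685 FPKM in medium. Its difference of -0.04 had a 95% interval of -0.19 to 0.11. Nucleolin, Ncl, differed by 0.07, and Ddx21 by 0.20 with an interval of -0.32 to 0.71.

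The small subunit processome gave no call in either fit. Its 6 genes had differences of -0.11 to 0.12 and a median of -0.02. The most abundant, Utp4, had 85.9, 104, 107, 108 and 109 FPKM with doxorubicin, against 56.1, 103, 100.4, 115 and 109.8 FPKM in medium. Without number 1 its difference was 0.00 (95% interval -0.09 to 0.09 with the block). Utp20 behaved alike, with 0.56 for number 1 and -0.08 to 0.03 for the others. Wdr43 had the lowest difference, -0.11 (block adjusted p 0.198), and Utp15, Nop14 and Ddx10 differed by -0.03, -0.01 and -0.03.

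Late small subunit factors counted 4 tested genes, with a median difference of 0.02. Nob1, the endonuclease that makes the last cut in the small subunit RNA, had 43.4, 49.3, 47.2, 50.7 and 45.99 FPKM with doxorubicin, against 48.5, 53.01, 49.6, 56.9 and 55.5 FPKM in medium. It was lower in 5 of 5 numbers. The difference was -0.15 ± 0.07 (SE; adjusted p 0.274, and 0.0469 with the block), and it missed the threshold under median ratio scaling with the block (0.0645). Its partner Pno1 differed by 0.08, Ltv1 by -0.04 and Bysl by 0.16. Within number 1 the difference of Bysl was 0.77, and within the others -0.09 to 0.15. Rrp12, not tested, had 0.352 to 0.566 FPKM with doxorubicin and 0.134 to 0.532 FPKM in medium.

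Large subunit assembly held 11 genes, 7 with a difference above 0 and 4 below, and a median of 0.09. The median within-number difference of these 11 was 0.28 for number 1, and -0.08, 0.07, -0.04 and -0.08 for numbers 2 to 5. Without number 1 their median difference was 0.03. Nop16 had 83.6, 104, 103, 88.4 and 92.9 FPKM with doxorubicin, against 73.0, 98.6, 92.3, 74.5 and 72.7 FPKM in medium. The groups overlap, and within each number doxorubicin was higher, by 0.07 to 0.35. The difference was 0.20 ± 0.10 (SE; adjusted p 0.339, and 0.0247 with the block). Bop1 had the next-largest difference after Nop10 in the set, 0.30 ± 0.24 (SE; adjusted p 0.556, and 0.130 with the block). Its within-number difference was 1.01 for number 1 and 0.03 to 0.19 for the others.

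Rpf1, Ebna1bp2 and Rrs1 lay on the other side. Rpf1 averaged 42.6 ± 5.42 FPKM with doxorubicin and 47.2 ± 6.57 FPKM in medium (adjusted p 0.567, and 0.0684 with the block). Ebna1bp2 averaged 47.6 ± 4.48 FPKM with doxorubicin and 51.8 ± 6.61 FPKM in medium (adjusted p 0.600, and 0.103 with the block). Rrs1 had 33.0 FPKM in doxorubicin 1 and 49.7 to 52.0 in the other doxorubicin libraries, against 20.9 in medium 1 and 53.8 to 62.3 in the other medium libraries. Its sign differs between number 1 (0.64) and numbers 2 to 5 (-0.32 to -0.06). The rRNA methyltransferase Nop2 differed by 0.15, Nip7 by 0.11, Wdr12 by 0.02 and Rpf2 by -0.07, none called in either fit. The low genes Pes1, Rrp1 and Rrp9 differed by 0.10, 0.09 and 0.12.

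**Figure D4:**
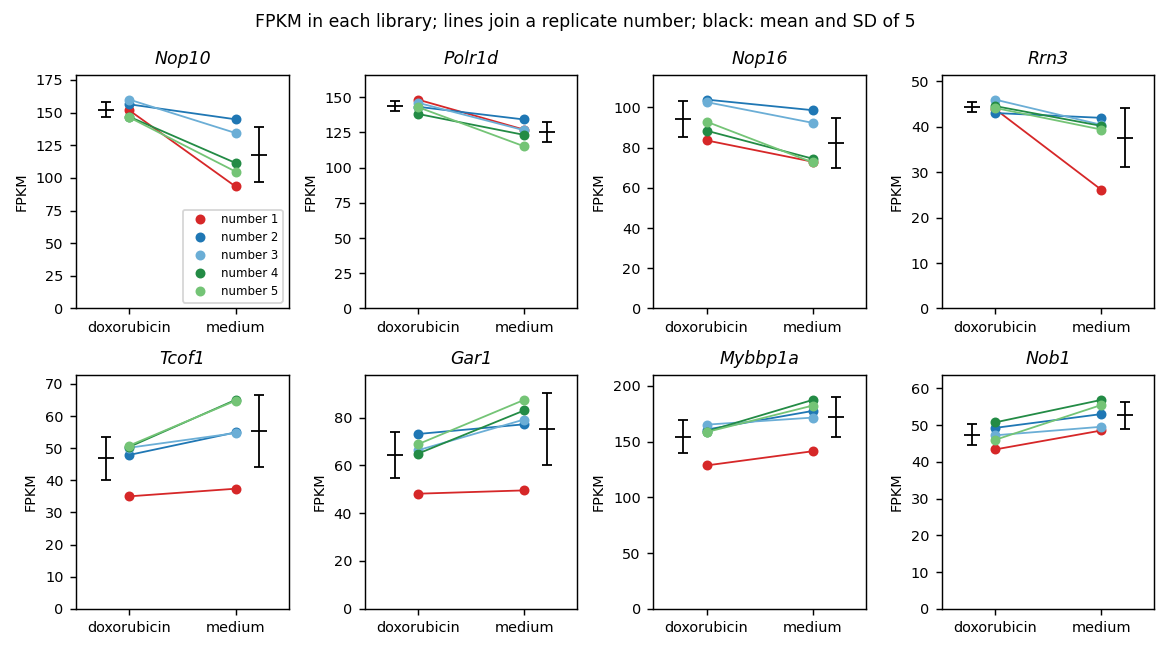
FPKM in each doxorubicin and medium library for 8 genes, with lines joining libraries of 1 replicate number and the mean and SD of 5 libraries in black. All doxorubicin points lie above all medium points for Nop10, Polr1d and Rrn3, and Tcof1, Gar1, Mybbp1a and Nob1 are lower with doxorubicin within each number.

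A wider list of 115 other ribosome biogenesis genes gave 109 tested, none called without the block and a median difference of 0.02. An unadjusted p under 0.05 was found for 7 of the 109, against 1757 of all 9869 genes tested. With the block 4 were called higher (Bms1, Ddx24, Dhx37 and Cebpz) and 7 lower (Znrd1, Taf1b, Utp11, Nol7, Noc2l, Tsr3 and Mphosph6), against 7.81% higher and 13.7% lower of all genes tested. The balance depended on the setting, with 9 higher and 5 lower under median ratio scaling with the block, and 10 higher and 8 lower with blocks of number 1, 2 with 3 and 4 with 5. Tsr3, which modifies small subunit RNA, averaged 16.3 ± 1.39 FPKM with doxorubicin and 20.8 ± 2.41 FPKM in medium, a difference of -0.33 (adjusted p 0.114, and 0.0112 with the block). The helicase Dhx37 averaged 27.6 ± 3.18 FPKM with doxorubicin and 22.6 ± 4.52 FPKM in medium, a difference of 0.30 (block adjusted p 0.0210). Taf1b, another SL1 subunit, differed by -0.31 (block adjusted p 0.0138), Nol7 by -0.19 (0.0209), Utp11 by -0.18 (0.0265) and the helicase Ddx24 by 0.26 (0.0283). The median within-number difference of the 109 genes was 0.19 for number 1 and -0.05 to 0.03 for the other numbers.

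Genes of the MYC network and of the other polymerases were set beside them. Myc had 1.35, 0.896, 1.03, 1.05 and 1.13 FPKM in doxorubicin 1 to 5, against 4.65, 1.05, 1.37, 2.01 and 2.67 FPKM in medium 1 to 5. Its highest library was medium 1, the library in which the ribosome biogenesis genes were lowest. The difference of -0.59 had an adjusted p of 0.217, and 0.0291 with the block. Mxd4, which competes with MYC for its partner MAX, had 7.50 to 8.86 FPKM with doxorubicin and 3.06 to 5.17 FPKM in medium, a difference of 0.78 (adjusted p 0.0154). Mxd1, of the same list, was also highest in the libraries numbered 1. It had 19.7 FPKM in medium 1 and 6.84 in doxorubicin 1, against 1.69 to 3.19 in numbers 2 to 5. Mxd4, Max and Mlxip had their lowest value in medium 1. Of 21 RNA polymerase III genes, 1 was called with the block (Polr3c, lower), and of 5 subunits shared by the polymerases, 1 was (Polr2h, lower). Of 7 RNA polymerase II genes, Polr2a was called higher and Polr2c lower with the block. Over all genes tested the block called 7.81% higher and 13.7% lower, so counts in lists this short are not read as results about the lists. No gene of these 3 lists was called without the block. An unadjusted p under 0.05 was found for 2, 1 and 2 of their genes, in that order, against 1757 of all 9869 genes tested.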

How the data were processed

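The authors deposited FPKM per gene symbol and library. Genome build GRCm39 is given per the submitters' processing notes, and the aligner, quantifier and annotation are not given in the sources used here. FPKM hold no read totals, so depth is unknown and no counting interval is given. From the deposited FPKM, log2(FPKM + 1) was fitted over the 9869 of 22186 genes that averaged 1 FPKM or more. The fit (limma 3.58.1, R 4.3.3) had group alone as its term and a trended variance, with Benjamini-Hochberg adjusted p-values read at 0.05. Differences on this scale understate changes of low genes. A fit that adds the replicate number from the titles as a block stands next to it. Deviations from the group means correlated at 0.52 to 0.79 between libraries with the same number, and at 0.51 to 0.69 between numbers 2 and 3 or 4 and 5, against -0.61 to 0.00 for other pairs. The exact permutation test is two-sided. Members and lists were chosen with earlier results of these data known. Named with values were the members with the 12 smallest block p, the most abundant and most different member of each role, and up to 6 other biogenesis genes. Any further gene is named with its values already known. One lymphocyte marker is not reported here. The script was tested on simulated data. Alternatives were pseudocount, filter, scaling, weights, blocks and libraries left out. Promoters came from RefSeq (GRCm38.p6).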

Additional observations from a re-analysis of the deposited data

Results flagged for a closer look

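Each of the 46 genes was examined in each group of 5 libraries for a library far from the other 4, by Dixon's gap test, which marks about 1 in 20 groups by chance. Of 92 groups, 34 had such a library, the lowest of its group each time. It was doxorubicin 1 for 13 genes, medium 1 for 20 and medium 2 for 1. The genes share these libraries, so these results are not independent. The share of all genes tested that this rule marks was not computed, so the count does not set these genes apart from others. In doxorubicin 1 the genes, with FPKM, were Polr1a (31.71), Dkc1 (41.76), Tcof1 (35.0), Utp4 (85.91), Utp20 (16.97), Wdr12 (34.48), Wdr43 (42.36), Ebna1bp2 (39.79), Rrs1 (32.99), Rpf1 (33.37), Ltv1 (20.42), Nip7 (21.7) and Mybbp1a (128.7). In medium 1 they were Polr1a (26.26), Polr1b (21.18), Rrn3 (26.14), Taf1a (3.992), Ncl (223.7), Fbl (161.4), Dkc1 (33.98), Nop2 (45.34), Gar1 (49.53), Nolc1 (60.27), Utp4 (56.09), Utp15 (17.32), Utp20 (11.21), Wdr12 (28.11), Rrp12 (0.1336), Rrs1 (20.89), Rpf2 (25.3), Bysl (6.211), Ddx21 (46.72) and Nip7 (17.0). The remaining one was Rrp1 in medium 2, at 2.027 FPKM, against 2.199 to 2.245 FPKM in the other medium libraries, one of the low genes. Members of every role are among the genes low in medium 1, from polymerase subunits to large subunit factors. Genes with no such library in either group included Npm1, Nop10, Nop16, Nob1, Gnl3, Polr1d and Bop1. A gene without a mark can still be low in medium 1, as Bop1 (35.84) and Nop10 (93.42) were.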

How the results depend on the processing

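Without the block, 0 of the 45 genes were called under a pseudocount of 0.1, no filter, median ratio scaling, the exact permutation test, or with any 1 library left out. Over all genes the permutation test called 0, where limma called 90, with 1757 at an unadjusted p under 0.05. The smallest p that the permutation test can give, 0.00794, became 0.119 after adjustment. It could therefore call no gene here, and its 0 adds nothing to the other settings. Other settings called more. For all genes, the 45 genes and the 109 other biogenesis genes in turn, the replicate block called 2127, 7 and 11; blocks of number 1, 2 with 3 and 4 with 5 called 3168, 11 and 18; leaving out number 1 called 556, 1 and 1, and with the block 2827, 11 and 22; and library quality weights called 3681, 16 and 28. With the block and number 2 left out, 1549, 4 and 8 were called; with number 3 out 1300, 2 and 4; with number 4 out 637, 0 and 1; with number 5 out 628, 0 and 0. These fits have fewer samples, but so does the block fit without number 1, which called more. The reason for the smaller counts was not tested. Leaving out 1 library without the block called 15 to 226 genes overall (226 without medium 1). Median ratio scaling with the block, added after seeing the data, called 2204, 6 and 14, and moved the split of all genes from 771 higher and 1356 lower to 1087 and 1117. The median difference of the 45 genes ranged from -0.0876 (without medium 1) to 0.1191 (without doxorubicin 1) with 1 library left out, and was -0.02086 without number 1 and -0.02637 with weights. Of 855 values for single genes, 61 had the other sign, in 20 genes, and 0 of these passed the threshold. With either set of blocks, without the filter and in the permutation test each difference stayed the same, so no sign could change there. Leaving out number 1 gave the same differences with and without the block. So 61 of 855 is not read as a rate. The cause of the differences between settings was not tested. Unknown depth limits Rrp1, Rrp9, Rrp12 and Pes1 most.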

Other observations

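Genes for ribosomal protein S6 kinases, whose symbols share the first letters of the small ribosomal protein genes, were also low in this table. The 10 symbols beginning with Rps6k averaged 0 to 0.656 FPKM, each under the filter of 1 FPKM, and Rps6kb1 averaged 0.402 FPKM with doxorubicin and 0.411 FPKM in medium. The Rrp genes outside the 46 were Rrp15, Rrp1b, Rrp36, Rrp7a and Rrp8, with means of 0.318 to 0.855 FPKM. Within RNA polymerase II, the largest subunit Polr2a had 48.5, 51.4, 53.04, 51.2 and 50.8 FPKM with doxorubicin, against 33.6, 45.4, 44.9, 40.0 and 40.2 FPKM in medium, a difference of 0.32 (limma adjusted p 0.102, and 0.00840 with the block). Polr2c, a smaller subunit, had 25.2, 30.6, 30.5, 28.1 and 30.4 FPKM with doxorubicin, against 32.1, 34.9, 35.8, 36.9 and 35.5 FPKM in medium, a difference of -0.27 (adjusted p 0.108, and 0.00943 with the block). In both genes the groups do not overlap, in opposite directions. Across the 45 genes the difference and the transcript length had a Spearman rho of 0.017, given as a description, against -0.067 over 9672 tested genes with a length.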
